A study of Mus musculus with 36 samples.

Results

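The 39 genes described here encode fibrillar and other collagens, glycoproteins, crosslinking enzymes and small proteoglycans of the extracellular matrix, matricellular CCN proteins, and cell-associated proteins that are abundant in fibroblasts. A gene was a member by its symbol, current or older, in the array's annotation, and no measured value was a criterion. The list was, however, chosen with earlier results of these data known. Of the 39, 35 had a measured probe on the array, and 32 of these stood above background on at least 4 arrays and were tested among 10533 features. Col5a2, Postn and Lum (chains of collagen V, periostin and lumican) had a measured probe that was above background on no array, so they were not tested. Col6a2, Col6a3, Col12a1 and Fbn1 had no probe under their symbols in the annotation used here. Each measured member rests on 1 measured probe, and 12 of the members had another probe that carried no measurement.

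RNA came from clones of induced pluripotent stem (iPS) cells and from 2 lines of embryonic stem (ES) cells, all of the mouse. The iPS clones were made from mouse embryonic fibroblasts (MEFs) that overexpressed Oct4 and Sox2 together with Esrrb (OSE, 8 clones), with Klf4 (OSK, 11 clones) or with Klf4 and Tbx3 (OSKT, 11 clones). R1 ES cells were grown in a medium for mouse ES cells (4 replicates), and D3 ES cells in a medium for MEFs (2 replicates). Line and medium thus cannot be told apart between R1 and D3, each iPS sample is a clone of its own, and the sources used here do not say whether cultures held feeder fibroblasts or how far feeders were removed.

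As background, fibroblasts make collagen chains that are folded in the endoplasmic reticulum with the collagen chaperone Serpinh1, secreted, assembled with fibronectin and small proteoglycans, and crosslinked by lysyl oxidases. Pluripotent cells make little of this fibrillar matrix and lay down mainly a laminin and collagen IV basement membrane. When fibroblasts are reprogrammed, matrix and other mesenchymal genes are switched off early as the cells turn epithelial, and in culture the same transcripts are abundant in feeder fibroblasts and in cells that differentiate.

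Between 8675 and 9720 of the 18720 measured probes were above background on each array. Within the sets, 3 of 28 OSE pairs of arrays, 7 of 55 OSK pairs and 6 of 55 OSKT pairs differed by no more than pairs of R1 replicates did, and averaging these near-identical arrays leaves 5 OSE, 6 OSK, 6 OSKT, 1 R1 and 1 D3 sample. The p-values count each array as 1 sample, and where nothing says that replicates came from separate cultures they measure only the spread between these samples. All 11 measured pluripotency markers out of 12 listed were tested, and their summed signal lay at 32300 to 43840 in OSE, 44670 to 61610 in OSK, 43590 to 65390 in OSKT, 81300 to 82790 in R1 and 73420 to 74180 in D3. Among these markers were Pou5f1 (Oct4), Sox2, Klf4 and Esrrb, which were also among the factors overexpressed to make the clones. No fibroblast sample was among the arrays, and of 28 fibroblast markers outside the members 18 were tested and 7, Cdh11, Tcf21, Meox2, Fap, Cd44, Cnn1 and Ddr2, were below background on every array. The summed signal of the 18 was 33770 to 71200 in OSE, 23510 to 64370 in OSK, 19450 to 63830 in OSKT, 22160 to 24710 in R1 and 18830 to 19030 in D3. The labels name no sorting of cells before this bulk RNA was taken, so fewer cells of a type and less RNA per cell cannot be told apart.

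In 5 members every iPS clone lay on the same side of both ES lines. Ccn1, Col1a1, Col5a1 and Col6a1 were higher in every iPS clone than on any R1 or D3 array, a pattern shared by 6.42% of all features, and Col18a1 was lower in every iPS clone, as were 8.97% of all features. In either direction 15.4% of all features kept the iPS clones and ES arrays apart, which is close to the share of members (5 of 32), so this is not particular to the members. The sequences just upstream of starts listed for these genes are shown to identify the members whose levels did not overlap between iPS clones and ES cells. RefSeq sequence of build GRCm38.p6 was at hand for 23 of the 39 members, Col1a1 not among them. Each window holds the 250 bases before a start listed for the gene, read in the direction of the gene, and 2 starts are listed for Col18a1. A listed start need not be the outer end of the gene. The Col5a1 window runs past position 27886381, where the annotated gene begins. The second Col18a1 window lies inside the annotated gene, which spans 77052178 to 77166530. Capitals mark every match, on either strand, to one of 5 short motifs. The core promoter element searched was TATAAA. The motif of TEAD factors was searched as GGAATG, and that of the zinc finger factor Sp1 as GGGCGG. The element bound by the factor NF-Y was searched as CCAAT, and that of the AP-1 dimers of Fos and Jun as TGANTCA, where N is any base. No matches in these windows overlap.
Ccn1 (chr3:145649986-145650235, minus strand): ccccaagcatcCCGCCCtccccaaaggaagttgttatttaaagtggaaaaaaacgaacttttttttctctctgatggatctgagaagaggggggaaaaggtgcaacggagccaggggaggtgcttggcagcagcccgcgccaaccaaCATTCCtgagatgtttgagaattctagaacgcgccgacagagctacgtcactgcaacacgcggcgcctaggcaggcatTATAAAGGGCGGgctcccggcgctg
Col5a1 (chr2:27886175-27886424, plus strand): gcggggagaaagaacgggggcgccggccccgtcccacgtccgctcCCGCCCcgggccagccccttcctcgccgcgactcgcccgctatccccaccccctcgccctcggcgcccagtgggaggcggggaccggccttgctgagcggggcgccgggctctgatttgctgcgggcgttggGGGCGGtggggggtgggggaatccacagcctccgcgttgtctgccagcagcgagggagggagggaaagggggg
Col6a1 (chr10:76726045-76726294, minus strand): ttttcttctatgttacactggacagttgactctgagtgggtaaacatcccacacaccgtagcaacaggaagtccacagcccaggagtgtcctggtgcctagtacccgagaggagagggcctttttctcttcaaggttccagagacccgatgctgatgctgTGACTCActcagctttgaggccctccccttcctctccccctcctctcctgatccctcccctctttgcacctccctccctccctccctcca
Col18a1, first start listed (chr10:77166531-77166780, minus strand): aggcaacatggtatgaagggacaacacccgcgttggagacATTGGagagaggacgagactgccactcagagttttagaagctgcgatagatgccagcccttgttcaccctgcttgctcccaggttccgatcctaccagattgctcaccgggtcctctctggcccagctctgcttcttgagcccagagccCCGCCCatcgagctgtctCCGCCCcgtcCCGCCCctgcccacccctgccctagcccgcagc
Col18a1, second start listed (chr10:77113706-77113955, minus strand): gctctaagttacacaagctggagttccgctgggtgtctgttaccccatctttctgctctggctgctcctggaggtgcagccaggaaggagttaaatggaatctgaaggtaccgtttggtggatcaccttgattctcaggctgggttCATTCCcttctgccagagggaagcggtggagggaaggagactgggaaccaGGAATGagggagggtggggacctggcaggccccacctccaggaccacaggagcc

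Ccn1 held a TATA box 25 bases before its start, directly followed by an Sp1 match, and a TEAD match on the other strand. TEAD factors bind DNA for the co-activator Yap1, and Ccn1 and Ccn2 are textbook targets of that pathway. Counting 1 start per gene, the TEAD motif lay in the window of 12.6% of 27025 genes and in 4 of the 23 members with sequence, Cald1, Ccn1, Col3a1 and Col6a2, and the TATA box in 13.0% and in 5 members, Ccn1, Col3a1, S100a4, Thbs2 and Vim. The AP-1 motif of Col6a1 lay in 6.9% of all windows and in no other member. The GC-rich Sp1 motif was in 32.9% of all windows and 12 of the 23 members, and the NF-Y element in 34.5% and 6. These are matches of letters and not binding measurements.

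Over the 5 groups, OSE clones had the highest mean for 25 of the 32 tested members and D3 cells the lowest for 28, where these groups were highest for 24.9% and lowest for 19.6% of all features. Averaged over the 32 members, the normalized log2 signal was 10.64 ± 0.30 in OSE (SD, n = 8), 10.25 ± 0.34 in OSK and 10.19 ± 0.27 in OSKT (n = 11 each), 9.87 ± 0.02 in R1 (n = 4) and 8.80 in both D3 arrays. The heat map of the members by array shows this order and 3 further features, namely OSE clone 8, which was low for many members, a step within OSK and OSKT between clones 1 to 4 and the later numbers, and Dcn, low in OSK and OSKT and high in D3. Clones 1 to 4 averaged 10.64 ± 0.06 in OSK and 10.53 ± 0.10 in OSKT, near the OSE mean. Clones 5 to 11 averaged 10.03 ± 0.18 in OSK and 10.00 ± 0.06 in OSKT. In OSE, clones 1 to 4 averaged 10.75 ± 0.16 and clones 5 to 8 averaged 10.54 ± 0.39. Members varied more between clones than genes in general did: the median SD over members was 0.28 in OSE, 0.43 in OSK and 0.29 in OSKT, where the median over all features was 0.19, 0.19 and 0.18. In R1 it was 0.10 for members and for all features.

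**Figure D1:**
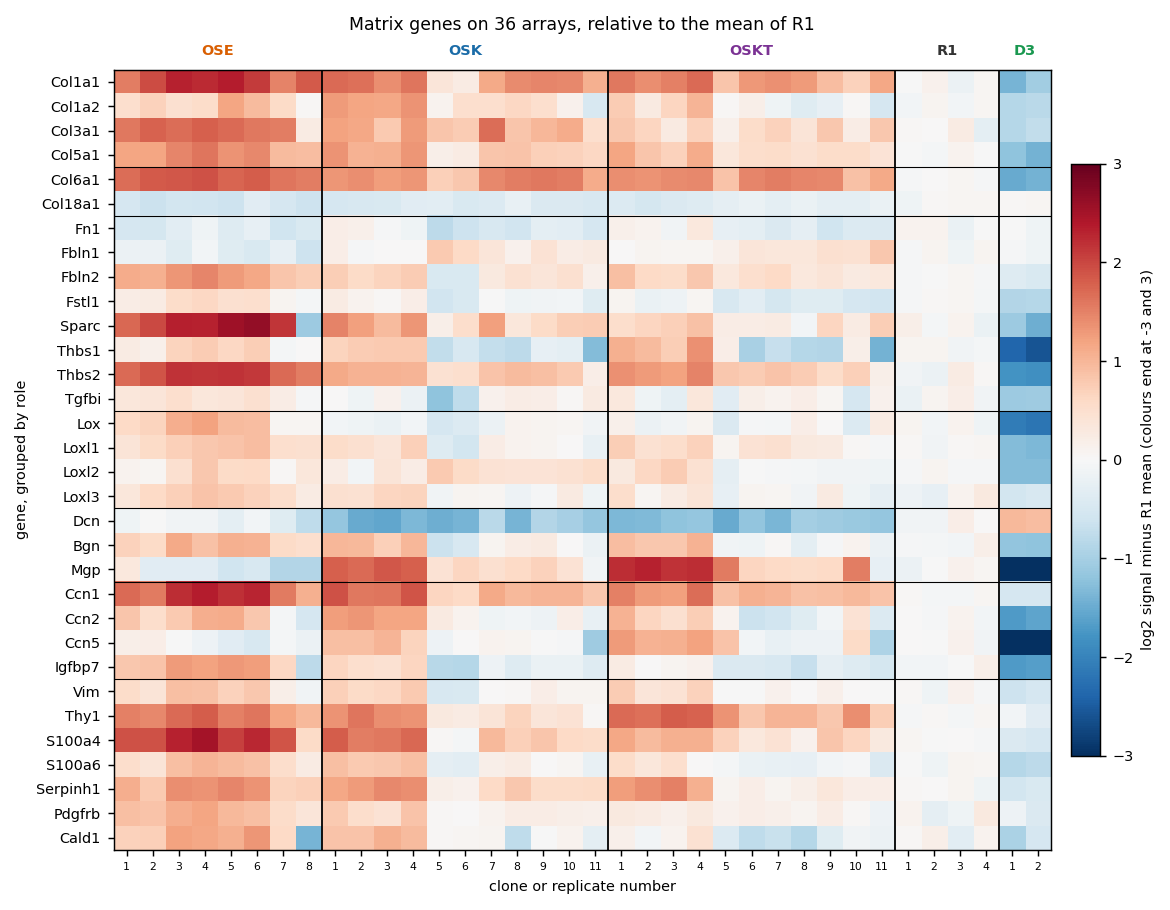
Heat map of the 32 tested members (rows, grouped by role) on all arrays (columns, grouped by set with clone or replicate numbers). Colour gives the normalized log2 signal minus the mean of the 4 R1 arrays, with colours ending at -3 and 3. D3 is blue for most genes and OSE red, while Dcn is blue in OSK and OSKT and red in D3.

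The fibrillar collagens formed a graded series. Col1a1, the main chain of collagen I, ran from 10.75 through a median of 11.30 to 11.63 in OSE, from 9.52 through 10.68 to 10.96 in OSK, and from 9.96 through 10.57 to 10.97 in OSKT. It read 9.26, 9.39, 9.09 and 9.33 on the R1 arrays and 7.86 and 8.23 on the D3 arrays. No iPS clone thus overlapped the ES cells, and R1 did not overlap D3. Col1a2, the partner chain of collagen I, was dimmer, with a lowest, median and highest value of 6.81, 7.32 and 7.96 in OSE, 6.30, 7.28 and 8.13 in OSK and 6.25, 6.81 and 7.79 in OSKT. Its R1 values of 6.69, 6.86, 6.68 and 6.84 and D3 values of 5.90 and 5.97 were all below background. The sets overlapped widely for this gene, which stood above background in 7 of 8 OSE, 8 of 11 OSK and 4 of 11 OSKT clones. Col3a1, which makes the homotrimer of collagen III, had 6.80, 8.19 and 8.35 in OSE, 7.06, 7.56 and 8.23 in OSK and 6.71, 7.20 and 7.37 in OSKT. It was below background on every ES array, at 6.58, 6.57, 6.80 and 6.27 in R1 and 5.71 and 5.81 in D3. OSE clones other than clone 8 read 8.08 or more, so the order ran from OSE through OSK to OSKT with overlap between neighbours. Col5a1, a chain of the collagen V that starts fibrils, averaged 12.70 ± 0.25 in OSE, 12.26 ± 0.38 in OSK, 12.10 ± 0.28 in OSKT, 11.44 ± 0.07 in R1 and 10.13 ± 0.14 in D3.

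Among other collagens, Col6a1, a chain of the microfibrillar collagen VI, read 10.84, 11.08 and 11.21 in OSE (lowest, median and highest), 10.01, 10.63 and 10.89 in OSK, and 10.15, 10.71 and 10.84 in OSKT. R1 arrays had 9.26, 9.31, 9.35 and 9.27, and D3 arrays 7.78 and 7.87. Gaps separated iPS, R1 and D3 arrays, and OSK overlapped with OSKT. Col18a1, a basement membrane collagen and the source of endostatin, behaved otherwise: it averaged 12.53 ± 0.10 in OSE, 12.67 ± 0.09 in OSK, 12.76 ± 0.11 in OSKT, 13.08 ± 0.09 in R1 and 13.12 ± 0.01 in D3.

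Fibronectin (Fn1), the scaffold on which collagen fibrils form, was nearly flat, with 10.46, 10.63 and 10.93 in OSE, 10.27, 10.73 and 11.25 in OSK and 10.46, 10.77 and 11.37 in OSKT. It read 11.14, 11.16, 10.86 and 11.04 in R1 and 11.04 and 10.92 in D3, so every iPS set overlapped both ES lines. Sparc, a collagen-binding glycoprotein, had 6.68, 10.00 and 10.40 in OSE, 7.94, 8.54 and 9.26 in OSK and 7.69, 8.29 and 8.65 in OSKT. Its R1 values were 7.93, 7.70, 7.86 and 7.57 and its D3 values 6.67 and 6.31. The lowest OSE value belongs to clone 8 and was below background, while the other OSE clones at 9.48 to 10.40 exceeded every OSK and OSKT clone. Thbs2, a matricellular thrombospondin, was the only member for which all OSE clones (11.28, 11.73 and 11.91) exceeded every other array, which held for 1.71% of all features (1.48% were below, 3.19% in either direction). It read 9.93, 10.63 and 10.88 in OSK and 9.91, 10.55 and 11.23 in OSKT, 9.63, 9.56, 9.97 and 9.77 in R1, and 7.93 and 7.90 in D3. Its relative Thbs1, which activates latent TGF-beta, had 8.56, 9.04 and 9.38 in OSE, 7.30, 8.31 and 9.40 in OSK and 7.19, 8.79 and 9.99 in OSKT. R1 arrays, at 8.69, 8.68, 8.51 and 8.55, fell in the middle of the OSK and OSKT ranges, and D3 arrays (6.22 and 6.01) were below background. The basement membrane and elastic fibre protein Fbln2 averaged 12.27 ± 0.25 in OSE, 11.48 ± 0.43 in OSK, 11.66 ± 0.21 in OSKT, 11.15 ± 0.04 in R1 and 10.73 ± 0.05 in D3. Its family member Fbln1 was lowest in OSE, at 7.57 ± 0.18, against 8.16 ± 0.26 in OSK, 8.17 ± 0.25 in OSKT, 7.88 ± 0.11 in R1 and 7.80 ± 0.08 in D3. The secreted glycoprotein Fstl1 stood at 12.79 ± 0.24, 12.36 ± 0.26, 12.15 ± 0.23, 12.46 ± 0.06 and 11.59 ± 0.01 in OSE, OSK, OSKT, R1 and D3, and the TGF-beta-induced adhesion protein Tgfbi at 8.77 ± 0.17, 8.33 ± 0.46, 8.45 ± 0.28, 8.44 ± 0.18 and 7.36 ± 0.02.

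Lysyl oxidases oxidize lysines of collagen and elastin for crosslinking. Lox itself had 12.14, 12.90 and 13.31 in OSE, 11.59, 12 and 12.21 in OSK, 11.65, 12.07 and 12.34 in OSKT, 12.19, 12.02, 12.21 and 11.97 in R1, and 10.01 and 9.91 in D3. OSK and OSKT clones thus lay on the R1 level and D3 far below every other array. In the same order of groups, Loxl1 averaged 11.67 ± 0.20, 11.14 ± 0.40, 11.37 ± 0.26, 11.01 ± 0.08 and 9.69 ± 0.02, and Loxl2 9.64 ± 0.28, 9.66 ± 0.23, 9.39 ± 0.35, 9.27 ± 0.06 and 7.96 ± 0.01. Loxl3 was near background at 7.13 ± 0.21, 6.73 ± 0.32, 6.61 ± 0.26, 6.53 ± 0.25 and 6.01 ± 0.06, and stood above it in 6 OSE, 3 OSK and 2 OSKT clones and on no ES array.

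Dcn (decorin), a proteoglycan that binds collagen fibrils, was highest in D3, followed by R1, OSE, OSKT and OSK. It was below background in all OSK clones (6.18, 6.40 and 6.94) and all OSKT clones (6.25, 6.56 and 6.73). OSE clones had 6.98, 7.63 and 7.74, R1 arrays 7.65, 7.65, 7.94 and 7.77, and D3 arrays 8.72 and 8.67. Both D3 arrays were thus above every other array, and D3 was above all others for 7.82% of features. The related proteoglycan Bgn (biglycan) averaged 11.33 ± 0.25 in OSE, 10.79 ± 0.59 in OSK, 10.80 ± 0.51 in OSKT, 10.52 ± 0.12 in R1 and 9.33 ± 0.02 in D3. Mgp (matrix Gla protein), an inhibitor of calcification, spanned the widest range of group means among the members, 5.41 on the log2 scale from D3 to OSKT. It read 10.48, 10.94 and 11.67 in OSE, 11.26, 12 and 13.22 in OSK, 11.11, 12.90 and 13.66 in OSKT, 11.19, 11.34, 11.50 and 11.41 in R1, and 7.27 and 7.19 in D3.

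Of the secreted regulators, Ccn1 (formerly Cyr61), an adhesive matricellular protein, had 9.04, 9.93 and 10.32 in OSE, 8.57, 9.00 and 9.89 in OSK, 8.82, 8.99 and 9.66 in OSKT, 8.02, 7.91, 7.93 and 8.04 in R1 and 7.46 and 7.48 in D3. Ccn2 (formerly Ctgf), a profibrotic relative, averaged 12.33 ± 0.57, 12.20 ± 0.64, 11.88 ± 0.58, 11.76 ± 0.08 and 10.12 ± 0.08 in OSE, OSK, OSKT, R1 and D3. Ccn5 (formerly Wisp2), which lacks the C-terminal domain of its relatives, had 9.08, 9.45 and 9.76 in OSE, 8.49, 9.63 and 10.57 in OSK and 8.62, 10.13 and 10.82 in OSKT. R1 arrays read 9.55, 9.53, 9.68 and 9.43, while D3 arrays at 5.71 and 5.98 were below background. Igfbp7, a secreted binder of insulin-like growth factors, averaged 10.96 ± 0.70, 10.07 ± 0.55, 9.89 ± 0.31, 10.14 ± 0.13 and 8.46 ± 0.04 in the same order of groups.

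Among cell-associated members, Thy1, a surface glycoprotein of fibroblasts that is lost early in reprogramming, had 10.94, 11.49 and 11.79 in OSE, 10.00, 10.39 and 11.56 in OSK and 10.70, 11.31 and 11.79 in OSKT. It read 9.94, 10.01, 9.91 and 10.02 in R1 and 9.87 and 9.62 in D3, below all OSE and OSKT clones and all OSK clones but clone 11. Vim, the mesenchymal intermediate filament protein, was bright in every sample, with 14.01, 14.74 and 15.03 in OSE, 13.63, 14.21 and 14.90 in OSK, 14.10, 14.24 and 14.87 in OSKT, 14.16, 13.98, 14.24 and 14.10 in R1 and 13.49 and 13.63 in D3. S100a4, a calcium-binding protein of motile mesenchymal cells, had 10.10, 11.52 and 12.02 in OSE, 9.47, 10.38 and 11.35 in OSK, 9.67, 10.23 and 10.69 in OSKT, 9.59, 9.52, 9.55 and 9.50 in R1 and 9.10 and 9.03 in D3. For S100a4 every OSE and OSKT clone lay above the ES arrays. In the order OSE, OSK, OSKT, R1 and D3, its relative S100a6 averaged 15.02 ± 0.29, 14.62 ± 0.49, 14.35 ± 0.32, 14.34 ± 0.09 and 13.52 ± 0.04, and Serpinh1 13.24 ± 0.33, 12.93 ± 0.46, 12.73 ± 0.58, 12.14 ± 0.09 and 11.64 ± 0.05. Pdgfrb, a receptor for platelet-derived growth factor, averaged 8.38 ± 0.27, 7.84 ± 0.29, 7.67 ± 0.13, 7.52 ± 0.25 and 7.23 ± 0.20. Cald1 (caldesmon), an actin-binding protein, averaged 7.57 ± 0.88, 7.16 ± 0.58, 6.65 ± 0.41, 6.90 ± 0.22 and 6.16 ± 0.31.

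**Figure D2:**
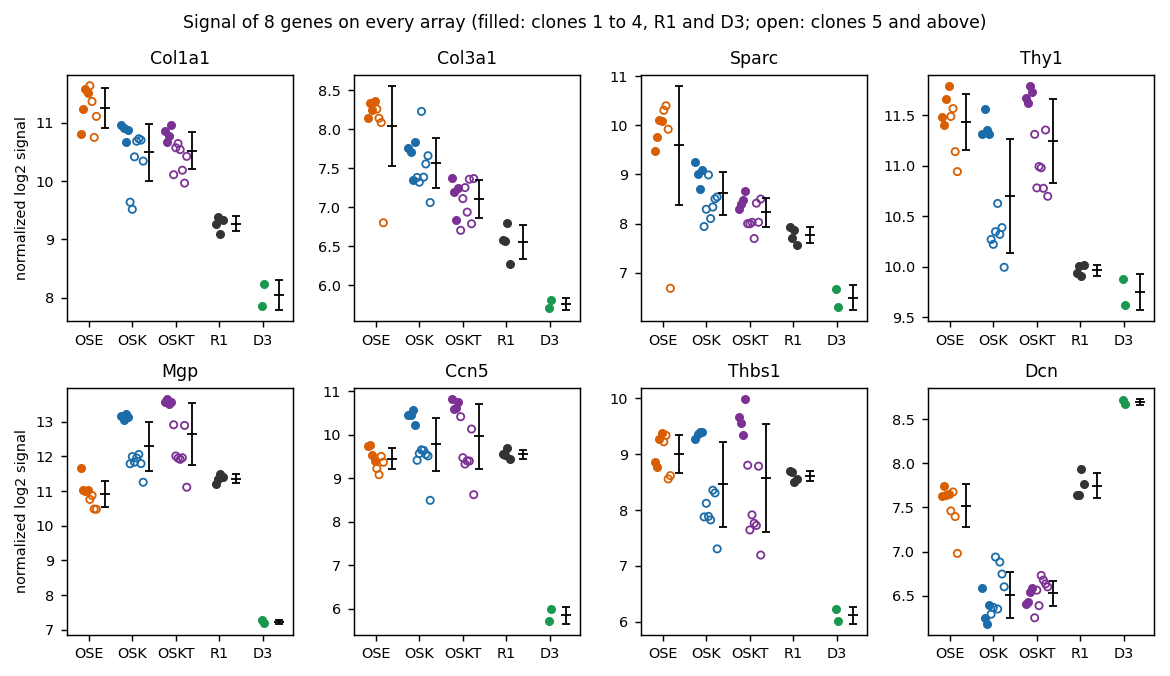
Normalized log2 signal of 8 members on every array, with 1 point per array and the mean and SD of each group beside it. Filled points are clones 1 to 4 and the ES arrays, and open points are clones 5 and above. Col1a1 falls from OSE to D3, Mgp, Ccn5 and Thbs1 split OSK and OSKT by clone number, and Dcn is highest in D3.

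OSE clones were compared with OSK clones, which carry Klf4 in place of Esrrb. Of the 32 tested members 20 rose, 3 fell and 9 did not pass the test, a share of 71.9% where 45.8% of all features were called (23.2% higher and 22.6% lower). The median log2 difference was 0.46 over the members and 0.00 over all features. Thbs2 rose 2.17-fold (limma, Benjamini-Hochberg adjusted p = 4.07e-08), S100a4 1.98-fold (adjusted p = 0.000485) and Sparc 1.97-fold (adjusted p = 0.00519). All 8 OSE clones exceeded every OSK clone for Thbs2, and 7 of 8 did so for S100a4 and Sparc.

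Of the 4 fibrillar collagens 3 rose, Col1a1 1.69-fold, Col3a1 1.39-fold and Col5a1 1.36-fold, while Col1a2 had a log2 difference of 0.00 ± 0.20 (SE). Col6a1 rose 1.39-fold and Col18a1 fell 1.10-fold, which became a log2 difference of 0.002 with arrays scaled to a common median. Of the 4 lysyl oxidases 3 rose, Lox 1.77-fold, Loxl1 1.45-fold and Loxl3 1.31-fold, and Loxl2 did not pass (adjusted p = 0.892). Of 8 matrix glycoproteins 5 rose, with Fbln2 at 1.74-fold, Fstl1 and Tgfbi at 1.35-fold beside Sparc and Thbs2, Fbln1 fell 1.50-fold, and Fn1 and Thbs1 did not pass. Both proteoglycans rose, Dcn by at least 1.46-fold because no OSK clone was above background, and Bgn 1.45-fold. Mgp fell 2.60-fold (log2 -1.38 ± 0.29, adjusted p = 0.000217), with 7 of 8 OSE clones below every OSK clone. Of the CCN group, Igfbp7 rose 1.85-fold and Ccn1 1.59-fold, and of the cell-associated genes Thy1 rose 1.66-fold, Pdgfrb 1.45-fold and S100a6 1.32-fold beside S100a4.

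Fibroblast markers outside the members moved the same way in this comparison, with 10 of 18 higher and 2 lower, and 7 of 11 pluripotency markers were lower and none higher. Of all features 23.2% were higher and 22.6% lower. The pluripotency markers include Klf4 and Esrrb, the factors in which OSE and OSK differ. The part of both lists in the member differences was not tested. The calls of 12 members, Col1a1, Col6a1, Dcn, Fbln1, Fbln2, Fstl1, Igfbp7, Lox, Mgp, Pdgfrb, S100a4 and Thbs2, held under all 31 other settings tried, and 15 members rose and 3 fell with near-identical arrays averaged, where 28.8% of all features were called. Within clones 1 to 4 alone 13 rose and 6 fell, where 43.9% of all features were called, and there Col1a2 (log2 -0.68) and Ccn2 (-0.43) were lower in OSE. This clone range was known from earlier results, so these values are a description. Bgn lost its call without OSE clone 3 (adjusted p = 0.0586), 5 (0.0537) or 6 (0.0513) or OSK clone 5 (0.06) or 6 (0.0575), and S100a6 in 9 of 19 omissions of a single clone (adjusted p up to 0.0809). Without OSE clone 8, Cald1 (log2 0.70, adjusted p = 0.00436) and Vim (0.43, adjusted p = 0.0154) also passed, and 22 members rose. Vim also passed without OSE clone 7 (0.39, adjusted p = 0.0406) or any of OSK clones 1 to 4 (0.38 to 0.40).

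**Figure D3:**
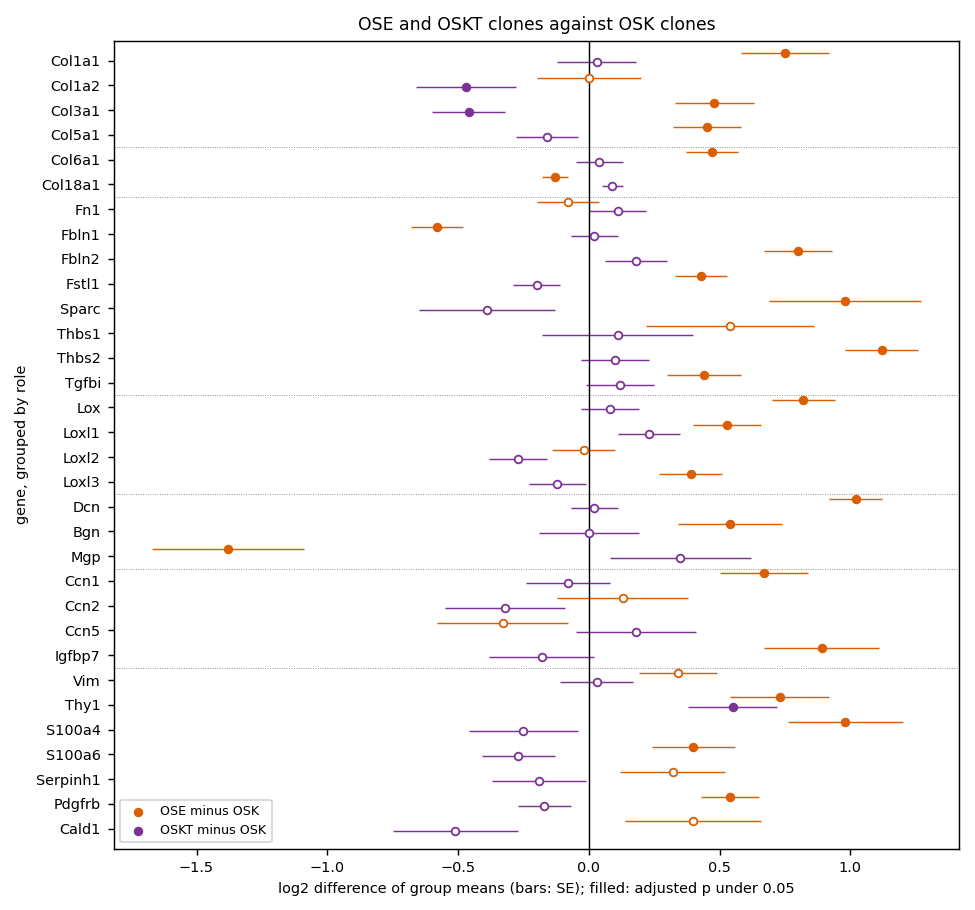
Log2 difference of group means for each tested member (rows, grouped by role) for OSE minus OSK and for OSKT minus OSK. Bars are SE, and filled points passed at an adjusted p under 0.05. Most OSE points lie right of 0, Mgp and Fbln1 left of it, and OSKT points gather around 0.

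Few members passed between OSKT clones, which carry Tbx3 in addition to the OSK factors, and OSK clones when all clones were compared. The members' median SD was 0.43 in OSK and 0.29 in OSKT, against 0.19 and 0.18 over all features. One member rose, 2 fell and 29 did not pass, a share of 9.38% where 35.5% of all features were called (19.5% higher and 16% lower), and the median log2 difference was 0.01. Thy1 rose 1.46-fold (adjusted p = 0.0121, 10 of 11 OSKT clones above the OSK mean). Col3a1 fell 1.38-fold (adjusted p = 0.0095), with all 11 OSKT clones below the OSK mean, and Col1a2 fell 1.38-fold (adjusted p = 0.0468), with 8 of 11 below. Col1a1, at a log2 difference of 0.03 ± 0.15 (SE), and Col6a1, at 0.04 ± 0.09, were close to 0. The largest differences that missed the threshold were Cald1 (-0.51 ± 0.24, adjusted p = 0.0903) and Sparc (-0.39 ± 0.26, adjusted p = 0.261).

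Thy1 was called under all 34 other settings. Col1a2 lost its call in 14 of the 22 omissions of a single clone (adjusted p up to 0.0966), among them each of OSK clones 1 to 4, and neither fall was called with near-identical arrays averaged, where 12.9% of all features were called. The number that fell was 4 without OSKT clone 1 or 4. Array weights gave 2 higher and 9 lower members, where 44.8% of all features were called. Within clones 1 to 4, 4 members were higher and 9 lower, where 28.1% of all features were called, and within clones 5 to 11, 3 were higher and 3 lower, where 38.6% were. The clone ranges were known from earlier results, so the counts within them are a description.

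Each iPS set was then compared with R1 ES cells, and the 3 comparisons share the same 4 R1 arrays. In OSK 14 of 32 members rose and 2 fell (50% of members and 53.8% of all features called, 25.8% of all features higher and 28% lower). In OSKT 11 rose and 3 fell (43.8% and 54.3%, with 26.4% higher and 27.9% lower), and in OSE 22 rose and 3 fell (78.1% and 58.7%, with 28.7% higher and 29.9% lower). For OSK and OSKT the share of called members was thus no larger than that of all features, with more of the calls upward. The median log2 difference of the members was 0.30 in OSK, 0.25 in OSKT and 0.68 in OSE, against 0.01, 0.00 and 0.01 over all features. Scaling to a common median moved the median of all features to -0.12 in OSK and -0.10 in OSKT, and then 8 members rose and 4 fell in OSK and 7 rose and 3 fell in OSKT. The share of all called features that were higher moved with it, in OSK from 48% to 30.9%, and in OSKT it was 35.4% after 48.7%.

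Of the collagens, Col6a1 was 2.41-fold higher in OSK (adjusted p = 1.56e-10), 2.47-fold in OSKT (7.54e-11) and 3.35-fold in OSE (1.93e-13). Col1a1 was 2.33-fold, 2.38-fold and 3.94-fold higher in OSK, OSKT and OSE, and Col5a1 1.76-fold, 1.57-fold and 2.40-fold. Because R1 was below background for Col3a1, its rise is given as at least 1.58-fold in OSK, 1.15-fold in OSKT and 2.20-fold in OSE. Col1a2 was called in OSK and OSE, at least 1.40-fold higher in each, and not in OSKT (adjusted p = 0.63). Col18a1 fell 1.33-fold, 1.25-fold and 1.46-fold in OSK, OSKT and OSE, in every clone of each set.

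Ccn1 rose 2.29-fold in OSK, 2.17-fold in OSKT and 3.65-fold in OSE, and Thbs2 1.75-fold, 1.88-fold and 3.80-fold. Thy1 rose 1.66-fold, 2.43-fold and 2.77-fold, S100a4 1.92-fold, 1.61-fold and 3.79-fold, and Serpinh1 1.72-fold, 1.51-fold and 2.15-fold. These genes, with the collagens Col1a1, Col3a1, Col5a1 and Col6a1, were higher in all 3 sets. Dcn fell at least 1.71-fold in both OSK and OSKT, in all 22 clones of the 2 sets, and its log2 difference in OSE was -0.23 ± 0.13 (SE, adjusted p = 0.127). Mgp rose 1.91-fold in OSK and 2.44-fold in OSKT, and in OSE had -0.45 ± 0.39 (adjusted p = 0.33).

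All 4 lysyl oxidases rose in OSE, Lox 1.62-fold, Loxl1 1.58-fold, Loxl2 1.30-fold and Loxl3 by at least 1.17-fold, while in OSK Loxl2 alone rose (1.32-fold) and in OSKT none did. Lox in OSK and OSKT differed from R1 by -0.13 ± 0.15 and -0.05 ± 0.15 (SE) on the log2 scale. Fbln2 rose 1.42-fold in OSKT and 2.18-fold in OSE. Calls made in OSE and in neither OSK nor OSKT were Fn1 (1.31-fold lower), Fbln1 (1.24-fold lower), Lox, Loxl1, Loxl3, Bgn (1.75-fold higher), S100a6 (1.60-fold higher), Vim (1.45-fold higher) and Igfbp7 (1.76-fold higher). Of these, Fn1 and Vim did not differ past the threshold between OSE and OSK themselves. Sparc was called in OSE (3.54-fold higher) and in OSK (1.80-fold higher) but not in OSKT (adjusted p = 0.291). Fstl1 was 1.26-fold higher in OSE and 1.23-fold lower in OSKT, and Pdgfrb 1.25-fold higher in OSK and 1.81-fold higher in OSE. Thbs1, Ccn2, Ccn5, Cald1 and Tgfbi passed in none of the 3 comparisons.

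With near-identical arrays averaged, R1 is a single sample whose spread is taken from the iPS sets, and 2 members then rose in OSK, 3 in OSKT and 10 in OSE, where 22.7%, 23.3% and 27.7% of all features were called. Under every setting, this one included, Col1a1, Col6a1, Col18a1 and Dcn remained called in OSK, the same 4 and Thy1 in OSKT, and Ccn1, Col18a1, Col1a1, Col3a1, Col5a1, Col6a1, Fbln2, Pdgfrb, S100a4, Thbs2 and Thy1 in OSE. Calls lost on leaving out a single array were Col1a2, Loxl2, Mgp, Pdgfrb and Sparc in OSK (adjusted p up to 0.0871, 0.0646, 0.0793, 0.217 and 0.111), and Col3a1 without R1 replicate 4 (0.0756), Fstl1, S100a4 and Serpinh1 in OSKT (up to 0.106, 0.0777 and 0.105). In OSE they were Col1a2, Fbln1, Fstl1 and Loxl2 (up to 0.0922, 0.118, 0.0786 and 0.0943), Fn1 without R1 replicate 1 (0.0745), 2 (0.0781) or 4 (0.0509), and Vim without R1 replicate 2 (0.063). Without R1 replicate 1, 9 members rose in OSK, and the number that fell in OSE was 1 without R1 replicate 1, 2 or 4. With clone 8 left out of OSE, Cald1 (log2 0.97, adjusted p = 0.00181) and Ccn2 (0.73, adjusted p = 0.0426) rose too.

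**Figure D4:**
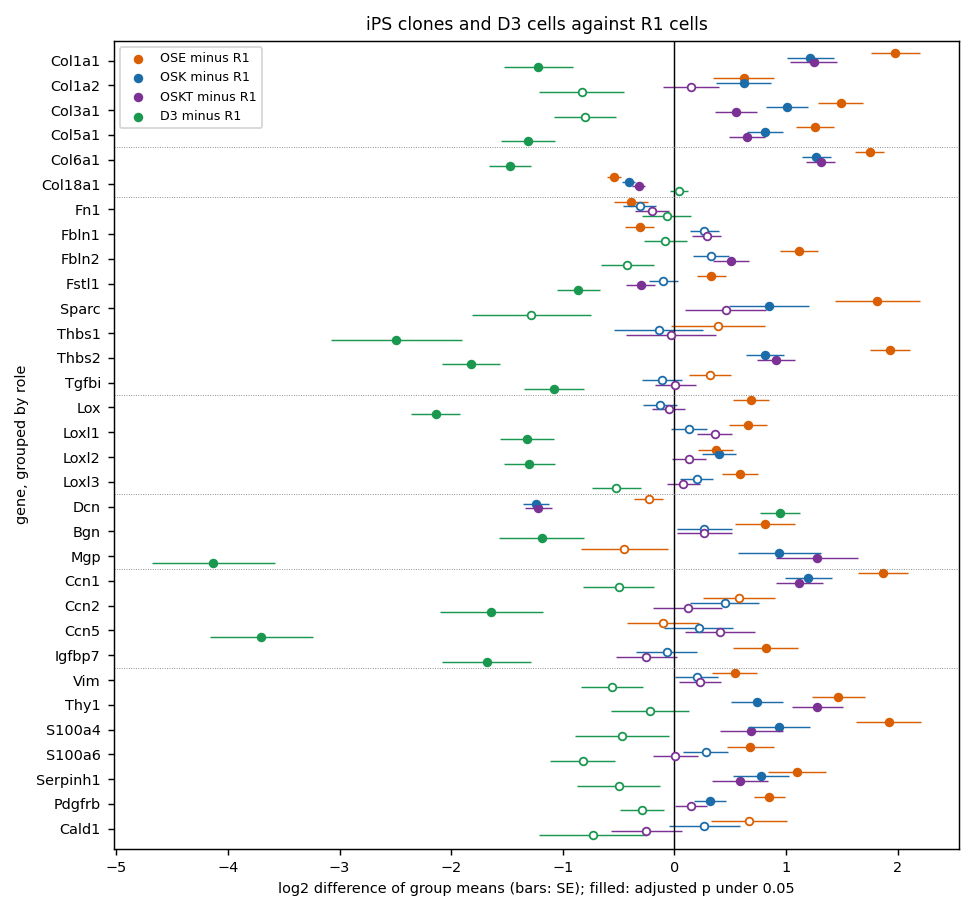
Log2 difference from R1 for each tested member (rows, grouped by role) in OSE, OSK, OSKT and D3. Bars are SE, and filled points passed at an adjusted p under 0.05. Collagens other than Col18a1, Ccn1, Thbs2 and Thy1 lie right of 0 in all 3 iPS sets and Mgp, Ccn5, Thbs1 and Lox far left in D3, while Dcn is right of 0 in D3 alone.

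D3 cells in the MEF medium were set against R1 cells in the ES medium. Of 32 members 1 rose, 15 fell and 16 did not pass, so that 50% were called, where 9.73% of all features were (4.63% higher and 5.1% lower). The median log2 difference was -0.85 over the members and 0.03 over all features. Mgp fell 17.5-fold (log2 -4.13 ± 0.55, adjusted p = 1.46e-06), Ccn5 at least 5.95-fold (adjusted p = 3.96e-07), Lox 4.40-fold (adjusted p = 1.35e-08) and Thbs1 at least 3.10-fold (adjusted p = 0.00454). For Ccn5 and Thbs1 both D3 arrays were below background and all 4 R1 arrays above it.

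Thbs2 fell 3.53-fold, Igfbp7 3.21-fold, Ccn2 3.12-fold, and among the collagens Col6a1 2.78-fold, Col5a1 2.48-fold and Col1a1 2.33-fold. The lysyl oxidases Loxl1 and Loxl2 fell 2.50-fold and 2.47-fold, Bgn 2.29-fold, Tgfbi 2.12-fold and Fstl1 1.82-fold. Dcn rose 1.93-fold (adjusted p = 0.000463). None of the 7 cell-associated genes passed in the fit over all arrays: Vim had a log2 difference of -0.56 ± 0.28, Thy1 -0.22 ± 0.35, S100a4 -0.47 ± 0.42 and Serpinh1 -0.50 ± 0.37 (SE). These SE rest on the spread over all arrays, most of them iPS clones. In a limma fit of the 2 groups alone, Vim (adjusted p = 9.29e-05), S100a4 (0.000277), S100a6 (1.31e-06), Serpinh1 (0.000179) and Cald1 (0.00556) were lower in D3. Both D3 arrays lay below every R1 array for these genes and for Thy1. Fn1 (-0.07 ± 0.22), Fbln1 (-0.08 ± 0.19) and Col18a1 (0.04 ± 0.08) were close to 0.

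Both D3 arrays were below every other array, iPS clones included, for 24 members, where 5.33% of all features showed this. Fibroblast markers outside the members were lower in D3 than in R1 in 5 of 18 and higher in none. The endoderm and basement membrane list was lower in 4 of 10 and higher in none. Of all features 4.63% were higher and 5.1% lower. No gene was called in the lists of endothelium (4 tested), muscle (4), simple epithelium and trophoblast (7) or macrophages and blood (1). The part of such cells in the result was not tested. With the 2 groups alone 26 members fell, where 31.8% of all features were called. With near-identical arrays averaged, D3 and R1 are 1 sample each and the spread comes wholly from the iPS sets, so the 3 members called there (0.56% of all features were) say nothing of the spread in ES cells. Without D3 replicate 1 the number that fell was 8: Col1a1 (adjusted p = 0.185), Fstl1 (0.0542), Ccn2 (0.173), Igfbp7 (0.0857), Tgfbi (0.0956), Thbs1 (0.0588) and Bgn (0.221) were then not called. Without D3 replicate 2, Ccn2 (0.129), Igfbp7 (0.0672), Tgfbi (0.0781), Thbs1 (0.0826) and Bgn (0.229) were not, and Bgn lost its call without any R1 replicate too (0.0561 to 0.0793).

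Clones 1 to 4 of OSK and OSKT stood above the later clones for most members, which is given without a test because the split was known from earlier results. In OSK 22 of 32 members were higher in every one of clones 1 to 4 than in any of clones 5 to 11 and 1 was lower, where 10.1% and 10.9% of all features were (21% in all). In OSKT the counts were 20 and 2, against 14.3% and 13.1% (27.4% in all). OSE had 1 such member, Mgp, with 5.58% of all features higher and 5.73% lower. The median difference over the members was 0.62 on the log2 scale in OSK, 0.50 in OSKT and 0.19 in OSE.

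Thbs1 differed most, with a mean of 9.36 in OSK clones 1 to 4, 2.65-fold above the later clones, and 9.64 in OSKT clones 1 to 4, 3.17-fold above. Mgp was 2.52-fold and 2.77-fold higher in OSK and OSKT clones 1 to 4, Ccn2 2.36-fold and 1.92-fold, and Ccn5 2.03-fold and 2.24-fold. In the later OSKT clones, clones 5 and 10 were intermediate, with Mgp at 12.92 and 12.90 and Ccn5 at 10.41 and 10.13, while clone 11 was lowest, at 11.11 and 8.62. OSK clone 11 was likewise the lowest of its set for Mgp (11.26), Ccn5 (8.49) and Thbs1 (7.30). Serpinh1 was 1.77-fold and 2.18-fold higher in clones 1 to 4 of OSK and OSKT, Bgn 2.03-fold and 1.98-fold, S100a4 2.21-fold and 1.50-fold, and Col1a2 1.96-fold and 1.76-fold.

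Col6a1 hardly took part, with differences of 0.08 in OSK and 0.15 in OSKT, nor did Col3a1 (0.15 and 0.09) and Lox (0.02 and 0.06). Loxl2 went opposite ways, -0.33 in OSK and 0.64 in OSKT. Col18a1 and Fbln1 were lower in OSKT clones 1 to 4, by -0.19 and -0.37. Set against R1, Thbs1 had log2 differences of 0.75 in OSK and 1.03 in OSKT with clones 1 to 4 alone, -0.66 and -0.63 with clones 5 to 11 alone, and -0.14 and -0.03 with the whole sets.

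Fibroblast markers outside the members split by clone number as well: their summed signal was 50790 to 64370 in OSK clones 1 to 4 and 23510 to 32950 in clones 5 to 11, and 50980 to 63830 and 19450 to 25760 in OSKT. The pluripotency markers ran the other way, at 44670 to 47980 and 54710 to 61610 in OSK and 43590 to 49240 and 61470 to 65390 in OSKT. By mean log2 signal the pluripotency ranges overlapped in OSK (10.80 to 10.96 and 10.94 to 11.25) and not in OSKT (10.65 to 10.90 and 11.17 to 11.42). Array brightness did not separate the ranges in OSK, with a 75th percentile of signal of 409.1 to 483.5 intensity units in clones 1 to 4 and 345.1 to 582.2 in the later clones. In OSKT it was 484.3 to 1056.7 and 378 to 512.8. The part of these measures was not tested. OSK clones 1 to 4 were grouped together as near-identical arrays, though not every pair of them was as alike as R1 replicates.

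**Figure D5:**
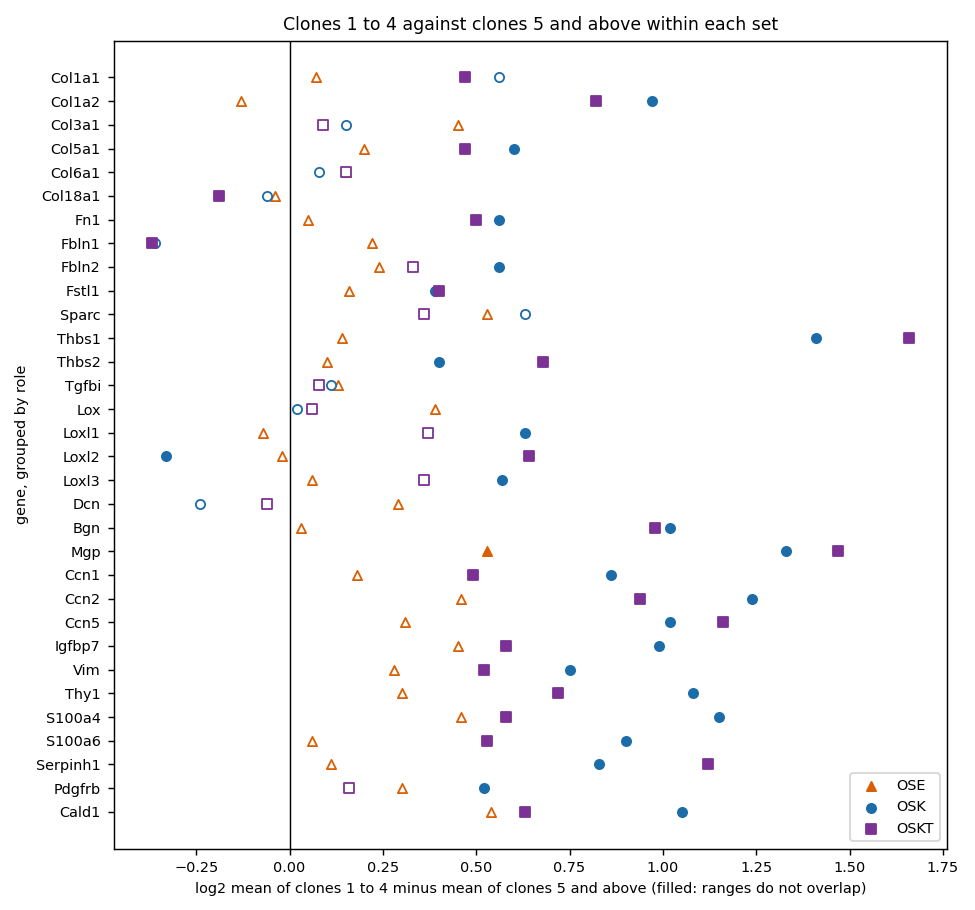
Mean log2 signal of clones 1 to 4 minus that of clones 5 and above for each tested member (rows, grouped by role) in OSE, OSK and OSKT. Filled symbols mark members whose 2 ranges do not overlap. OSK and OSKT points lie mostly right of 0, with Thbs1 and Mgp farthest out, and OSE points nearer to it.

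OSE clone 8 was the lowest OSE clone for 24 of the 32 members, where it was lowest for 22.5% of all features. Its Cald1 read 5.50, its Sparc 6.68 and its Col3a1 6.80, against at least 7.49, 9.48 and 8.08 in the other OSE clones. These clone 8 values were below background. Thbs2 in this clone still exceeded every array outside OSE. The summed signal of fibroblast markers was lowest of the OSE clones there, at 33770, and that of pluripotency markers highest, at 43840. By mean log2 signal the fibroblast markers were again lowest in clone 8, at 9.12. The pluripotency markers, at 10.65, then lay within the OSE range of 10.43 to 10.77. OSE clone 4 was the highest for 16 members, where it was highest for 11% of all features.

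Genes that work with the members were described from 4 lists. Of 15 tested genes of collagen biosynthesis none rose and 5 fell in D3 against R1 (33.3%, where 9.73% of all features were called), with a median log2 difference of -0.32. The falls were led by the collagen prolyl hydroxylase subunits P4ha1 (log2 -1.47, adjusted p = 2.51e-06 in limma) and P4ha2 (-1.07) and the lysyl hydroxylase Plod2 (-1.02). Plod2 was also lower than R1 in OSK (-0.97), OSKT (-1.45) and OSE (-1.34), as was the retrieval receptor Kdelr3 (-0.87, -0.98 and -0.63). The list as a whole had no common direction in iPS clones, with 5 higher and 5 lower in OSK, 4 and 4 in OSKT and 4 and 6 in OSE. These calls made up 66.7%, 53.3% and 66.7% of the list, where 53.8%, 54.3% and 58.7% of all features were called. Against OSK, P4ha2 (-0.91) and P4ha1 (-0.71) were lower in OSE.

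Of 7 tested integrins, the receptors for collagens and fibronectin, 3 were higher and 2 lower in OSK and in OSKT against R1, 4 and 2 in OSE, and 1 was lower in D3. The share called was 71.4%, 71.4%, 85.7% and 14.3% in OSK, OSKT, OSE and D3. Over all features it was 53.8%, 54.3%, 58.7% and 9.73%. Itga11, part of a receptor for fibrillar collagen, was 2.56-fold, 2.49-fold and 2.71-fold higher than R1 in OSK, OSKT and OSE and lower in D3 (log2 -0.99, adjusted p = 0.00011). Itga6, part of a laminin receptor, was lower in all 3 sets (log2 -0.47, -0.82 and -0.96). Of 13 tested TGF-beta pathway genes, 3 were higher and 2 lower in OSK, 3 and 3 in OSKT, 7 and 2 in OSE, and 3 were lower in D3. Their share called was 38.5%, 46.2%, 69.2% and 23.1%, below that of all features in OSK and OSKT. The ligand Tgfb3 was 1.93-fold higher in OSE than in OSK (adjusted p = 1.13e-05), and Ltbp4, which holds latent TGF-beta in the matrix, was lower than R1 in OSK (log2 -1.41), OSKT (-1.24) and OSE (-1.28). Of 7 tested genes of the YAP and TEAD pathway, 3 were higher, 1 lower and 3 not called in OSE against OSK, where 45.8% of all features were called, 2 were higher in OSK and in OSKT against R1, 3 higher and 1 lower in OSE, and none passed in D3 in the limma fit. Against R1 the share called was 28.6% in OSK and in OSKT and 57.1% in OSE, no larger than that of all features. Ankrd1, a Yap1 target, was 2.64-fold higher in OSE than in OSK (adjusted p = 0.000372), and the receptor tyrosine kinase Axl 1.96-fold (adjusted p = 0.00217).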

How the data were processed

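RNA of 36 samples was hybridised to 1-colour bead arrays. Values are intensities in the unscaled table, deposited as made by the authors, with BeadStudio named in the submitters' processing notes and its version and settings not given in the sources used here. Of 24613 probes, 5893 held only values between -5.5 and 15.5 on every array and were taken as unmeasured. Intensities were corrected with normexp (offset 16), brought to shared quantiles and log2-transformed (R 4.3.3, limma 3.58.1). Background was read from the negative intensities of each array, and its 99th percentile (45.2 to 90.8 units) was the detection threshold. Probes above it on at least 4 arrays were kept, with the highest-mean probe per gene. A limma fit with 1 mean per group over all arrays and a trended prior gave log2 differences, SE and Benjamini-Hochberg adjusted p over all 10533 features, called under 0.05. "At least" folds set the brighter group's mean against the detection limit where no array of the other was above background. The test was checked on simulated data. Values by sample are given for Col1a1, Col1a2, Col3a1, Fn1, Sparc, Thy1, Vim and up to 4 members with the largest called differences in each comparison, and group means for the rest. Alternatives covered the authors' scaled table, scaling, background, filters, weights, replicate block, clone numbers and left-out arrays. The members and lists were chosen with earlier results of these data known. The number of arrays limits the precision.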

Additional observations from a re-analysis of the deposited data

Results flagged for a closer look

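In OSE and R1, the groups of a size that allowed it, each member's highest and lowest array was set against the rest by Dixon's gap test at the 95% level, which chance passes in about 1 in 20 groups. It was passed in 10 of 64 pairs of member and group. In 6 pairs it was OSE clone 8, each time the lowest: Col3a1 at 6.80 (other OSE clones 8.08 to 8.35), Sparc at 6.68 (9.48 to 10.40), Dcn at 6.98 (7.40 to 7.74), S100a4 at 10.10 (11.44 to 12.02), Cald1 at 5.50 (7.49 to 8.23) and Igfbp7 at 9.35 (10.75 to 11.45). The clone 8 values of Col3a1, Sparc, Dcn and Cald1 were below background. OSE clone 6 was high for Col18a1, at 12.74 (12.44 to 12.58), and OSE clone 1 for Mgp, at 11.67 (10.48 to 11.02). R1 replicate 1 was low for Col18a1, at 12.94 (13.10 to 13.13), and R1 replicate 2 high for Loxl2, at 9.35 (9.23 to 9.24). These are normalized log2 signals.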

How the results depend on the processing

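The replicate block takes the clone or replicate number as a block. It gave 2 higher and 5 lower members in OSKT against OSK (41% of all features called). Against R1 24 members were higher in OSK and 21 in OSKT (59.2% called in each), and Thbs1 turned to 0.60 and 0.72. The numbers did not pair the samples: correlations of same-numbered samples ran from 0.01 to 0.63 over 11 pairs of OSKT and OSK, from -0.26 to 0.59 over 8 pairs of OSE and OSK and from -0.07 to 0.09 against R1, and 2 of 11 and 2 of 8 pairs correlated best with their own number. With arrays scaled to a common median there were 2 higher and 1 lower in OSKT against OSK, where 30.7% of all features were called. Against R1 there were 8 higher and 4 lower in OSK (54.6%) and 7 higher in OSKT (54.4%). The scaling turned Col18a1 in OSE against OSK to 0.002. Array weights gave 2 higher and 9 lower in OSKT against OSK, where 44.8% of all features were called, and 6 lower in OSKT against R1 (67.2%). They gave 26 lower in D3 against R1 (33.8%), and the 2 groups alone also 26 (31.8%). With no filter on dim probes 1 fell in OSKT against OSK, and with no background correction 0 rose in D3 against R1 in limma. With near-identical arrays averaged, limma called 0 lower in OSKT against OSK, 2 higher in OSK, 3 higher in OSKT, and 10 higher and 1 lower in OSE against R1, and 0 higher and 3 lower in D3. Clones 1 to 4 alone gave 4 higher and 9 lower in OSKT against OSK (28.1% of all features called) and 13 and 6 in OSE against OSK (43.9%). Against R1 24 were higher in OSK (65.7%) and 22 in OSKT (64.9%). With these clones Bgn (-0.10), S100a6 (-0.14), Ccn2 (-0.43) and Col1a2 (-0.68) turned in OSE against OSK. Igfbp7 (0.56) and Thbs1 (0.75) turned in OSK against R1 and Thbs1 (1.03) in OSKT against R1. Clones 5 and above gave 3 higher and 3 lower in OSKT against OSK, and Thbs1 fell there in OSK (-0.66) and OSKT (-0.63) against R1, with 5 members lower in each set against R1. Of all features 38.6% were called in OSKT against OSK there, and against R1 54.9% in OSK, 56.8% in OSKT and 55.6% in OSE. Because the clone ranges were known from earlier results, the counts within them are a description. Leaving out single arrays gave 1 to 2 higher and 1 to 4 lower in OSKT against OSK, 18 to 22 and 3 in OSE against OSK, 9 to 15 and 2 to 3 in OSK, 8 to 12 and 2 to 3 in OSKT and 18 to 24 and 1 to 3 in OSE against R1, and 1 and 8 to 14 in D3. The averaging and the smaller sets of clones leave fewer samples, and the cause of these changes was not tested for any setting. No member had another measured probe, so that alternative gave no value. Signal near background limits Col1a2, Col3a1, Dcn, Loxl3 and Cald1.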
